A study of Mus musculus with 8 samples.

Results

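Expression of the genes that build and load MHC class I molecules, together with the CD1d gene Cd1d1, was compared between skin and spleen invariant natural killer T (iNKT) cells. The set was given by gene name, without a threshold on values, though with earlier results of these data known. It held 10 of the 22549 genes in the table: the heavy chains H2-K1, H2-D1 and H2-T23, the light chain B2m, the peptide supply genes Tap1, Tap2, Tapbp and Erap1, the transactivator Nlrc5, and Cd1d1. All 10 had counts and passed the filter on low counts. The study sequenced RNA of iNKT cells from skin (4 libraries) and from spleen (4 libraries), and every library, spleen included, came from mice of genotype CCR10+/EGFP, which carry 1 EGFP allele at the chemokine receptor locus Ccr10. The labels give no age, sex or strain, do not say how the cells were sorted, and do not say that same-numbered libraries share an animal or that libraries come from separate animals. What the p-values measure is thus the scatter among these 8 libraries, part of which could be technical.

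MHC class I molecules are made by nearly all nucleated cells. A polymorphic heavy chain pairs with beta 2-microglobulin, encoded by B2m, and the complex is stable at the cell surface once it has bound a peptide. Peptides are cut by the proteasome, moved into the endoplasmic reticulum by the transporter that Tap1 and Tap2 encode, trimmed by the aminopeptidase Erap1 and loaded with the help of tapasin, encoded by Tapbp. Nlrc5 encodes the transactivator of class I genes, which acts through a conserved promoter module and is itself induced by interferon. CD1d is a class I-like molecule that also pairs with beta 2-microglobulin but presents lipids, and it is the ligand of the iNKT receptor.

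Promoter windows from RefSeq (build GRCm38.p6, 250 bases before to 50 after the annotated start) were matched by symbol for 7 of the 10 genes. Those of both classical heavy chains, of B2m and of Tap1 are shown because the comparison of heavy chain, light chain and transporter levels turns on these genes. Each is written 5′ to 3′ along its gene. Capitals mark matches to 3 motifs, each searched on both strands. The first is the class I kappaB site, the first run of capitals in H2-D1 and H2-K1. The next is the interferon response core (TTTC, any 2 bases, TT). The last is the cyclic AMP response core TGACG followed after 20 bases by ATTGG, the reversed CCAAT box, a spacing chosen after the sequences were seen.
H2-D1, chr17:35262844-35263143, plus strand: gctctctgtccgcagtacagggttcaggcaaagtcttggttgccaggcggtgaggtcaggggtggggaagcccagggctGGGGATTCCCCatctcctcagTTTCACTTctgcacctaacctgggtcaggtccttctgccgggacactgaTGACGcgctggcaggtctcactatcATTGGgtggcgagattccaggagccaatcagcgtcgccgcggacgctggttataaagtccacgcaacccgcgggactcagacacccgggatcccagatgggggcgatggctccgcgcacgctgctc
H2-K1, chr17:34000298-34000597, minus strand: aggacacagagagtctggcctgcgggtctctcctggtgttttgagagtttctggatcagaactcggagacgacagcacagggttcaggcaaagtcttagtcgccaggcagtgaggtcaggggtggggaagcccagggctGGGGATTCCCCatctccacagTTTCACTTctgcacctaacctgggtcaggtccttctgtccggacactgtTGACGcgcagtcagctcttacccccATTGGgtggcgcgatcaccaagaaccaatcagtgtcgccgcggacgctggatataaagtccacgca
B2m, chr2:122147437-122147736, plus strand: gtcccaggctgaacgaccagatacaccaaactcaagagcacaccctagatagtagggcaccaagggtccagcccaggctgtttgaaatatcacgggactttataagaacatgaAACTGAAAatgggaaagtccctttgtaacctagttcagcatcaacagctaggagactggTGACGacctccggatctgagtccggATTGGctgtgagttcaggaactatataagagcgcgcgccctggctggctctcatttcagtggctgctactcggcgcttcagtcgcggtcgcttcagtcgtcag
Tap1, chr17:34187306-34187605, plus strand: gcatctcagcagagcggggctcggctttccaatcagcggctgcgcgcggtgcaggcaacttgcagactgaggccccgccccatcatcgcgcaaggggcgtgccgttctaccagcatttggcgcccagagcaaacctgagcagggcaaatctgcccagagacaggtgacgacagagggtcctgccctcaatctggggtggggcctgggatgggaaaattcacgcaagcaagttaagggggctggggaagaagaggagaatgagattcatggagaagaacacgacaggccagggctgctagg
The kappaB site stood in the H2-D1 and H2-K1 windows and in 0.0222% of 27025 promoters of the same length. That motif is named for class I genes and the 2 windows resemble each other, so these matches test nothing. The spaced pair of TGACG and ATTGG stood in the windows of H2-D1, H2-K1 and B2m and in 0.0962% of all promoters. The interferon response core, present in 24.2% of all promoters, was found in 5 of the 7 windows, those of H2-D1, H2-K1, H2-T23, B2m and Erap1. The Tap1 window held TGACG, as 21.0% of all promoters do, and CCAAT, as 37.9% do, without the spacing, and none of the 3 motifs. That of Tapbp held none of them either. Aligned without gaps at the best offset, a shift of 60 bases, the H2-D1 and H2-K1 windows were identical at 176 of 240 bases (73.3%). The source listed 2 windows for H2-K1, and only the first was used. A match is a description of these letters and not a binding site.

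Levels are given in CPM (expected counts over the library's total, brought to a common size after TMM scaling), with n = 4 libraries per tissue. Library totals ranged from 7191131 to 9791973 expected counts, and 3 counts corresponded to 0.292 to 0.454 CPM, which covers counting error only. Skin libraries held a count for 5302 to 6012 genes and spleen libraries for 6415 to 10094. Of 20 iNKT and T cell markers, all with counts, 0 were called higher and 3 lower in skin. Of all genes tested, 1.85% were called higher and 3.58% lower. The 20 markers summed to 8861 to 10672 CPM in skin, against 10012 to 13794 CPM in spleen. Cd3d, Cd3e, Cd3g and the iNKT lineage factor Zbtb16 had counts in all 8 libraries, with Cd3d called lower at 470 ± 83.9 CPM in skin, against 1112 ± 226 CPM in spleen. Also called lower were the NK1.1 gene Klrb1c and the receptor gene Slamf6, both at 0 in all 4 skin libraries, and Sh2d1a was at 0 in 3 of them. Of 16 keratinocyte markers 12 had counts, summing to 273 to 1172 CPM in skin, against 0 to 29.5 CPM in spleen, with Krt5 and Krt14 at 0 in every spleen library. Of 20 markers of dendritic cells, Langerhans cells and macrophages 7 had counts, summing to 140 to 286 CPM in skin, against 0.195 to 79.5 CPM in spleen. Xcr1 alone gave 159, 80.8, 140 and 109 CPM of that sum in skin replicates 1 to 4, and was the whole of it in replicates 1 and 3. Itgax and Cd14 added 38.2 and 38.0 CPM in skin replicate 2, and Epcam and Lyz2 119 and 52.2 CPM in skin replicate 4. Lyz2 averaged 13.1 CPM in skin, against 23.8 CPM in spleen. Of 11 B cell markers 7 had counts, at 0 to 76.1 CPM in skin, against 48.9 to 235 CPM in spleen. Of 12 fibroblast and endothelial markers 4 had counts, at 0.847 to 245 CPM in skin and 0 to 57.4 CPM in spleen, and of 15 mast cell, granulocyte and red cell markers 6 did, at 0 to 2.12 CPM in skin and 120.4 to 298 CPM in spleen. Of the 20 markers of dendritic cells, Langerhans cells and macrophages, 13 were at 0 in all 8 libraries. Csf1r, Flt3, Zbtb46, Clec9a, Mrc1 and the Langerhans cell marker Cd207 were among them. In these bulk samples a change in the number of cells of a type and a change in RNA per cell cannot be told apart.

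The classical heavy chain gene H2-D1 was higher in skin iNKT cells and passed the test. The other classical gene, H2-K1, had higher values in every skin library without passing, and the values of the shared light chain gene B2m overlapped. H2-D1 had 17678, 17055, 13161 and 14302 CPM in skin replicates 1 to 4, against 7169, 7494, 10481 and 9352 CPM in spleen replicates 1 to 4. Every skin library was above every spleen library. Its mean was 15549 ± 2165 CPM in skin, against 8624 ± 1568 CPM in spleen. The fitted log2 fold change was 0.85 ± 0.15 (SE), or 1.80-fold higher (edgeR quasi-likelihood test, Benjamini-Hochberg adjusted p = 0.025 over 6920 genes). H2-D1 was the only member called: 1 of 10 was higher, where 1.85% of all genes tested were, and 0 were lower, where 3.58% of all genes were. At an unadjusted edgeR p under 0.05 the members numbered 2 higher (H2-D1 and H2-K1) and 1 lower (Tapbp), where 5.10% of all genes were higher and 7.33% lower at that p, and DESeq2 called none. The call of H2-D1 was kept without skin replicate 3 or 4 or spleen replicate 3 and was lost without skin replicate 1 or 2 or spleen replicate 1, 2 or 4, with log2 fold changes of 0.75 to 0.96 and adjusted p of 0.0309 to 0.0977 over these 8 fits.

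H2-K1 had 7903, 9169, 6490 and 7403 CPM in skin, against 4001, 5778, 6304 and 5475 CPM in spleen. The tissues did not overlap, although the lowest skin value lay close to the highest spleen value. The log2 fold change was 0.52 ± 0.16 (SE; 95% interval 0.16 to 0.88) and was not called (edgeR adjusted p = 0.121). B2m had 6345, 5639, 5009 and 5309 CPM in skin, against 5152, 6220, 6270 and 5609 CPM in spleen. Its tissues overlapped, and the log2 fold change of -0.06 had a 95% interval of -0.31 to 0.19 (edgeR adjusted p = 0.998). All genes tested had a median log2 fold change of -0.29.

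The ratio of summed H2-K1 and H2-D1 to B2m transcripts, which does not depend on library scaling, separated the tissues. That of H2-T23 to B2m overlapped, at 0.100 to 0.159 in skin and 0.058 to 0.176 in spleen. The summed CPM of H2-K1 and H2-D1 was 4.03, 4.65, 3.92 and 4.09 times that of B2m in skin replicates 1 to 4, against 2.17, 2.13, 2.68 and 2.64 times in spleen replicates 1 to 4. The lowest skin ratio was above the highest spleen ratio. Within the pair, H2-D1 stood at 2.24, 1.86, 2.03 and 1.93 times H2-K1 in skin and at 1.79, 1.30, 1.66 and 1.71 times in spleen. Per kilobase of exon (GENCODE M21), B2m had the highest level of the 10 in spleen, at 6759 ± 620 CPM per kb, and its range lay above that of H2-D1 (4103 ± 746 CPM per kb). In skin H2-D1 (7397 ± 1030 CPM per kb) and B2m (6483 ± 667 CPM per kb) overlapped, and both ranges were above that of H2-K1 (4678 ± 675 CPM per kb). H2-T23 followed at 502 ± 158 CPM per kb in skin and 543 ± 237 CPM per kb in spleen. Tapbp stood at 248 ± 98.7 CPM per kb in skin and 424 ± 7.79 CPM per kb in spleen, and Tap1 at 109 ± 81.7 and 222 ± 19.7. Erap1, Tap2, Cd1d1 and Nlrc5 had lower means, from 2.12 to 27.7 CPM per kb in skin and from 18.6 to 127 CPM per kb in spleen, and their ranges overlapped in skin. H2-K1, H2-D1 and B2m together took 2.22% to 2.99% of all expected counts in skin and 1.79% to 2.17% in spleen.

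Markers of keratinocytes, which also make class I molecules, stood higher in skin too. The summed keratinocyte markers stood at 1024, 334, 1172 and 273 CPM in skin replicates 1 to 4, while H2-D1 was highest in replicates 1 and 2. The difference in mean level, skin minus spleen, was 6925 CPM for H2-D1 and 2352 CPM for H2-K1. The part of other cells in it was not tested. Of the 75-base words in the reference transcripts, 6.33% for H2-D1 and 1.12% for H2-K1 also occur in another gene, and none for B2m. These shares are for the C57BL/6J reference, class I sequences differ between strains, and the part of shared reads in the values was not tested.

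No nonclassical heavy chain gene was called. H2-T23 encodes Qa-1, a heavy chain that displays leader peptides of other class I proteins to CD94/NKG2 receptors. It had 977, 894, 502 and 582 CPM in skin, against 299, 913, 1106 and 879 CPM in spleen. The groups overlapped, with spleen replicate 1 lowest of all, and the log2 fold change was -0.11 (95% interval -1.02 to 0.79; edgeR adjusted p = 0.998). Of the other class I heavy chain genes, 18 of 22 names were in the table and 9 were tested. By edgeR 0 passed in either direction, where 1.85% of all genes tested were higher and 3.58% lower. Every alternative tried, DESeq2 included, also gave 0. At an unadjusted edgeR p under 0.05 H2-Q6 was higher and H2-Q9 lower, where 5.10% and 7.33% of all genes were. The median log2 fold change of the 9 genes was -0.12. H2-Q9, H2-Q6, H2-Q7 and H2-T9 were the most abundant. H2-Q9, of the Qa-2 family, stood at 679 ± 204 CPM in skin, against 1078 ± 162 CPM in spleen. H2-Q6 stood at 535 ± 211 CPM in skin, against 275 ± 85.9 CPM in spleen, and H2-Q7 at 396 ± 279 CPM and 211 ± 43.9 CPM. The sum over H2-Q6 to H2-Q9 averaged 1687 ± 405 CPM in skin, against 1687 ± 117 CPM in spleen, while H2-Q9 took 31.1% to 43.8% of it in skin and 55.1% to 68.5% in spleen. These genes share sequence: 21.1% of the 75-base words of H2-Q6 and 22.6% of those of H2-Q7 occur in another gene, so the split between them is uncertain. No such share was obtained for H2-Q8 or H2-Q9. H2-T9 stood at 194 ± 62.4 CPM in skin, against 211 ± 61.1 CPM in spleen. H2-K1 and H2-D1 made up 88.2% to 89.3% of all class I heavy chain CPM in skin and 81.4% to 83.3% in spleen.

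**Figure D1:**
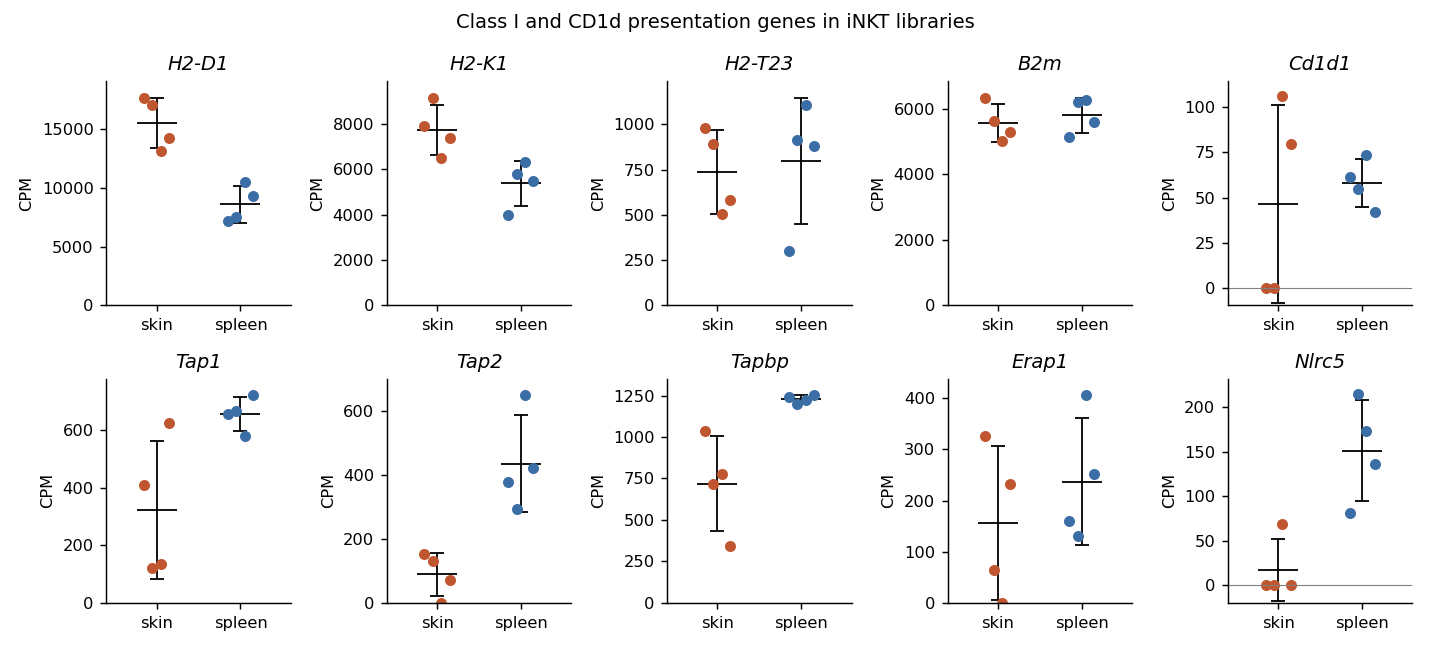
CPM of the 10 genes in each library (points, replicates 1 to 4 from left to right), with the mean and SD (bars, n = 4) for skin and spleen, each panel on its own linear axis that includes 0. H2-D1 and H2-K1 lie above spleen in every skin library, B2m and H2-T23 overlap, and Tap2, Tapbp and Nlrc5 lie below spleen in every skin library.

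Tap1, Tap2, Tapbp and Erap1, the peptide supply genes of the set, had lower mean levels in skin, but none was called. Tapbp had 1037, 718, 776 and 343 CPM in skin, against 1240, 1199, 1224 and 1251 CPM in spleen. Every skin library was below every spleen library, and the spleen values were tight. The fitted log2 value of -0.77 ± 0.30 (SE) did not pass (edgeR adjusted p = 0.271) and had a 95% interval of -1.45 to -0.10. Tap2, the partner chain of the peptide transporter, had 153, 131, 0 and 72.4 CPM in skin, against 379, 295, 650 and 421 CPM in spleen. Here too the tissues did not overlap. The fitted log2 value of -2.29 ± 1.38 (SE) did not pass (edgeR adjusted p = 0.702). Tap1 had 408, 120, 136 and 625 CPM in skin, against 657, 665, 580 and 721 CPM in spleen. Skin replicate 4 lay inside the spleen range and the other skin libraries below it (log2 fold change -1.02 ± 0.52, SE; edgeR adjusted p = 0.533). Erap1 had 327, 63.9, 0 and 233 CPM in skin, against 161, 131, 406 and 252 CPM in spleen. Its groups overlapped, and the log2 fold change of -0.60 had a 95% interval of -3.93 to 2.72, which leaves its direction undetermined.

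In each library the summed CPM of Tap1, Tap2 and Tapbp was set against that of H2-K1 and H2-D1, a ratio free of library scaling. It was 6.25%, 3.70%, 4.64% and 4.80% in skin replicates 1 to 4, against 20.4%, 16.3%, 14.6% and 16.1% in spleen replicates 1 to 4. The highest skin value was below the lowest spleen value. By sum alone the 3 genes reached 913 to 1598 CPM in skin, against 2160 to 2454 CPM in spleen. H2-K1 and H2-D1 summed to 19651 to 26224 CPM in skin, against 11170 to 16785 CPM in spleen. Both sums were already apart, in opposite directions, so the ratio had to be apart as well. Erap1 was not part of the sum.

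**Figure D2:**
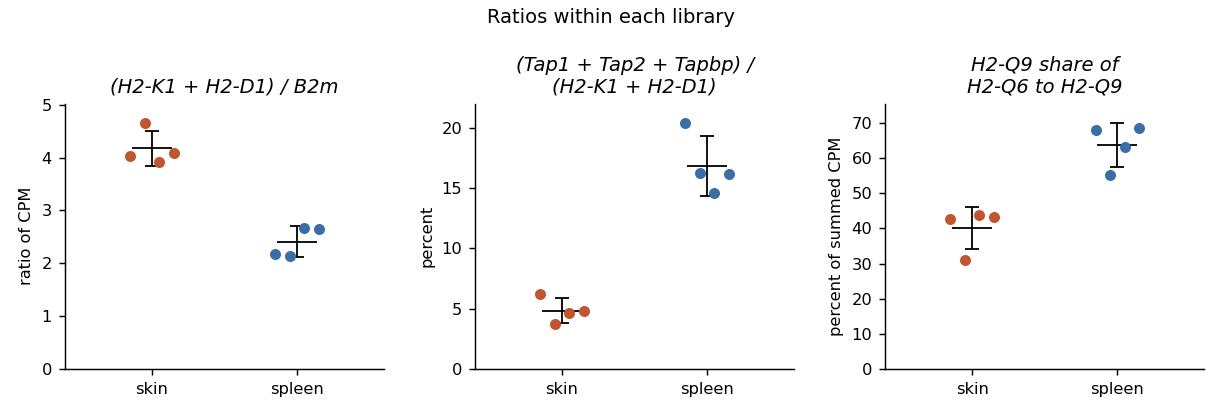
Ratios within each library for skin and spleen (points, replicates 1 to 4 from left to right; bars, mean and SD, n = 4), on linear axes from 0: H2-K1 plus H2-D1 over B2m, peptide transporter and tapasin over H2-K1 plus H2-D1 in percent, and the H2-Q9 share in percent. The tissues are apart in all 3 panels, with H2-K1 plus H2-D1 over B2m at 3.92 to 4.65 in skin and 2.13 to 2.68 in spleen.

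Nlrc5, the class I transactivator, was detected in 1 skin library. It had 0, 0, 69.0 and 0 CPM in skin, against 81.3, 215, 173 and 136 CPM in spleen. All skin values were below all spleen values, with means of 17.3 ± 34.5 CPM in skin, against 151 ± 56.8 CPM in spleen (log2 fold change -3.13 ± 2.51, SE; edgeR adjusted p = 0.905). Without skin replicate 3, which left no count in skin, it was called lower (edgeR adjusted p = 0.0419), and in the other 7 such fits it was not. Over all 18 alternatives its adjusted p ran from 0.0352 (limma-voom) to 0.9999. Values at 0 were frequent in skin at this level: genes at 100 to 200 CPM in spleen stood at 0 in 22.2% of skin values and 2.53% of spleen values, and the part of such zeros in the difference was not tested. None of its 75-base words occurs in another gene.

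Cd1d1 was low in both tissues. It had 0, 0, 106 and 79.6 CPM in skin, against 61.3, 55.0, 73.7 and 42.2 CPM in spleen. The skin libraries lay on both sides of the spleen range, and the 95% interval of the log2 fold change, -5.33 to 4.68, did not show whether the gene differed (edgeR adjusted p = 0.998). Genes at 50 to 100 CPM in spleen stood at 0 in 35.4% of skin values. Of its 75-base words 18.7% occur in another gene, its copy Cd1d2, which averaged 0.0353 ± 0.0706 CPM in skin, against 0.0987 ± 0.14 CPM in spleen, under the 3-count level.

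Across the 10 genes, 2 had every skin library above every spleen library, where 6.11% of all genes tested did, and 3 had every skin library below, where 13.4% did. Exact permutation tests of single genes on log2(CPM + 1), two-sided and unadjusted, gave p = 0.0286 for H2-K1, H2-D1, Tap2, Tapbp and Nlrc5, the lowest value possible with 4 libraries per tissue. Scaled by library totals alone, H2-K1 gave an exact permutation p of 0.0857. The same exact permutation tests gave p = 0.0571 for Tap1, 0.314 for Erap1, 0.429 for Cd1d1, 0.571 for B2m and 0.971 for H2-T23. Fitted log2 fold changes lay above 0 for 2 of the 10 genes and below 0 for 8, with a median of -0.46, against -0.29 over all genes tested.

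The immunoproteasome and its PA28 activator, which favour peptides that fit class I, gave 2 lower calls among 6 listed genes, where 3.58% of all genes tested were called lower. Psme1 and Psme2, which encode the PA28 alpha and beta subunits, fell in skin, and the other 4 genes did not pass. Psme2 had 302, 367, 179 and 369 CPM in skin, against 788, 798, 987 and 1017 CPM in spleen (2.95-fold lower; log2 fold change -1.56 ± 0.27, SE; edgeR adjusted p = 0.0243). Psme1 had 210, 372, 233 and 156 CPM in skin, against 790, 540, 894 and 732 CPM in spleen (3.04-fold lower; edgeR adjusted p = 0.0411). Neither gene overlapped between the tissues, and DESeq2 called neither (adjusted p = 0.238 for Psme1, with 0.0201 to 0.238 over all 18 alternatives, and 0.234 for Psme2, with 0.0098 to 0.234). The call of Psme1 held only without skin replicate 2 or 4, and that of Psme2 only without skin replicate 2, 3 or 4, among the 8 fits that left out 1 library. Of the 75-base words of Psme2, 46.9% occur in another gene, Psme2b. The catalytic subunit genes Psmb8, Psmb9 and Psmb10 and the assembly factor gene Pomp, named after their values were seen, were not called with all libraries. Psmb8 averaged 744 ± 362 CPM in skin, against 1764 ± 414 CPM in spleen (edgeR adjusted p = 0.0639). Psmb9, whose gene lies beside Tap1, averaged 79.3 ± 76.2 CPM in skin, against 374 ± 92.3 CPM in spleen (edgeR adjusted p = 0.105). Psmb10 averaged 133 ± 61.7 CPM in skin, against 409 ± 111 CPM in spleen, and Pomp 100.4 ± 57.2 CPM and 356 ± 75.6 CPM. For all 6 genes every skin library lay below every spleen library, as for 13.4% of all genes tested, and their median log2 fold change was -1.61, against -0.29 over all genes. Skin replicate 1 was the highest skin library for Psmb8 and Psmb9, and without it both were called lower (edgeR adjusted p = 0.014 for Psmb8, with 0.014 to 0.499 over all 18 alternatives, and 0.0174 for Psmb9, with 0.0174 to 0.259).

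**Figure D3:**
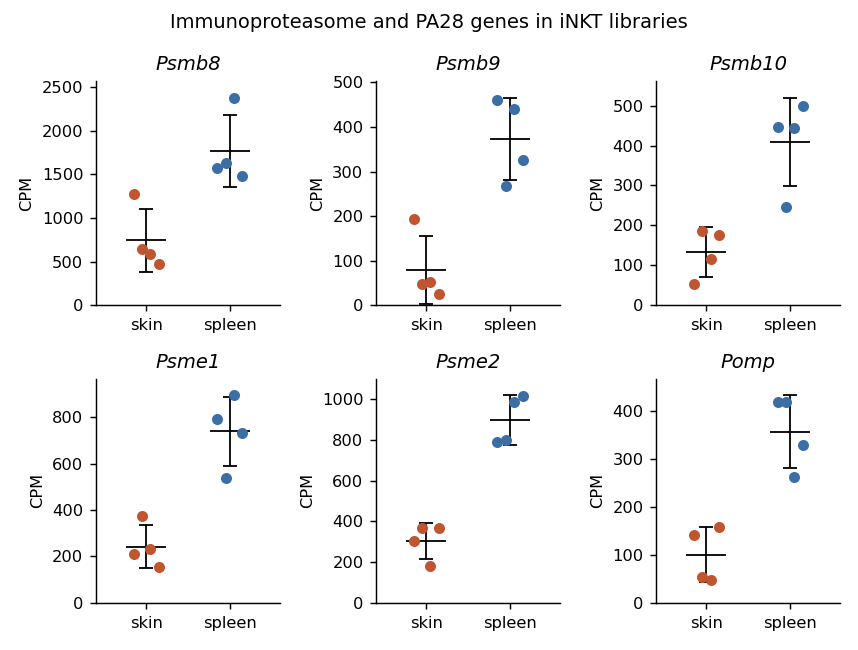
CPM of the 6 immunoproteasome and PA28 genes in each library (points, replicates 1 to 4 from left to right; bars, mean and SD, n = 4), skin and spleen, on linear axes from 0. Every skin library lies below every spleen library in each panel, and Psme1 and Psme2 are the 2 that passed the test.

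Regulators of class I transcription were described by a list of 21 transactivator genes. Of these, 17 were tested and 0 passed by edgeR in either direction, where 1.85% of all genes tested were higher and 3.58% lower. At an unadjusted edgeR p under 0.05, 0 were higher and 2 lower, Irf1 among them, where 5.10% and 7.33% of all genes were. DESeq2 called 3 lower, where it called 1179 lower of 8886 genes. Scaling by library totals alone and limma-voom called 2 lower each, where they called 303 and 500 lower of 6920 genes. Irf1, an interferon-induced activator of class I and Tap1 promoters, averaged 396 ± 175 CPM in skin, against 906 ± 147 CPM in spleen (edgeR adjusted p = 0.0694; called without skin replicate 2). Irf1 lay below spleen in every skin library. The coactivator gene Crebbp averaged 3.13 ± 3.05 CPM in skin, against 30.3 ± 13.6 CPM in spleen (edgeR adjusted p = 0.455). The list had a median log2 fold change of -0.72, against -0.29 over all genes tested.

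Of 26 interferon receptor and response genes 21 were tested. By edgeR 1 was higher and 1 lower, where 1.85% and 3.58% of all genes tested were. DESeq2 called 2 higher and 5 lower, where it called 201 and 1179 of 8886 genes. The median log2 fold change of the list was -0.50, against -0.29 over all genes tested. Ifngr1, the ligand-binding chain of the interferon gamma receptor, had 2894, 2455, 1687 and 2000 CPM in skin, against 577, 340, 656 and 471 CPM in spleen. The tissues lay far apart, and Ifngr1 was 4.42-fold higher in skin, 2.14 ± 0.26 on the log2 scale with its SE (edgeR adjusted p = 0.00426). It was called in all 8 fits that left out 1 library. Ifit3, an interferon-induced antiviral gene, had no count in skin and 221 ± 99.3 CPM in spleen, which makes it at least 571-fold lower against 3 counts per library, with an edgeR adjusted p of 0.0127. That call was lost without spleen replicate 1, 2 or 3.

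Among 20 other loading and trimming genes 18 were tested. By edgeR 2 were higher and 1 lower, where 1.85% and 3.58% of all genes tested were. The median log2 fold change of the list was 0.10, against -0.29 over all genes tested. Calr encodes calreticulin, the chaperone of the peptide loading complex. It had 891, 1420, 1352 and 774 CPM in skin, against 492, 556, 526 and 639 CPM in spleen (mean 1109 ± 324 CPM in skin, against 553 ± 62.9 CPM in spleen; edgeR adjusted p = 0.048). The tissues did not overlap. The call of Calr was kept only without skin replicate 4 among the 8 fits without 1 library. Hspa5, the general chaperone of the endoplasmic reticulum, averaged 2398 ± 563 CPM in skin, against 1175 ± 345 CPM in spleen (edgeR adjusted p = 0.0498) and was called in none of those 8 fits. Neither was called by DESeq2, when scaled by library totals alone, or with the 50 most abundant genes left out of the scaling, and over all 18 alternatives the call was lost in 12 for Calr and in 13 for Hspa5. Ganab, a glucosidase that trims glycans of new glycoproteins, had no count in skin and 222 ± 62.5 CPM in spleen, at least 574-fold lower with an edgeR adjusted p of 0.011, a call that went without spleen replicate 2 or 3. Bounds against 3 counts do not cover transcripts lost before sequencing.

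**Figure D4:**
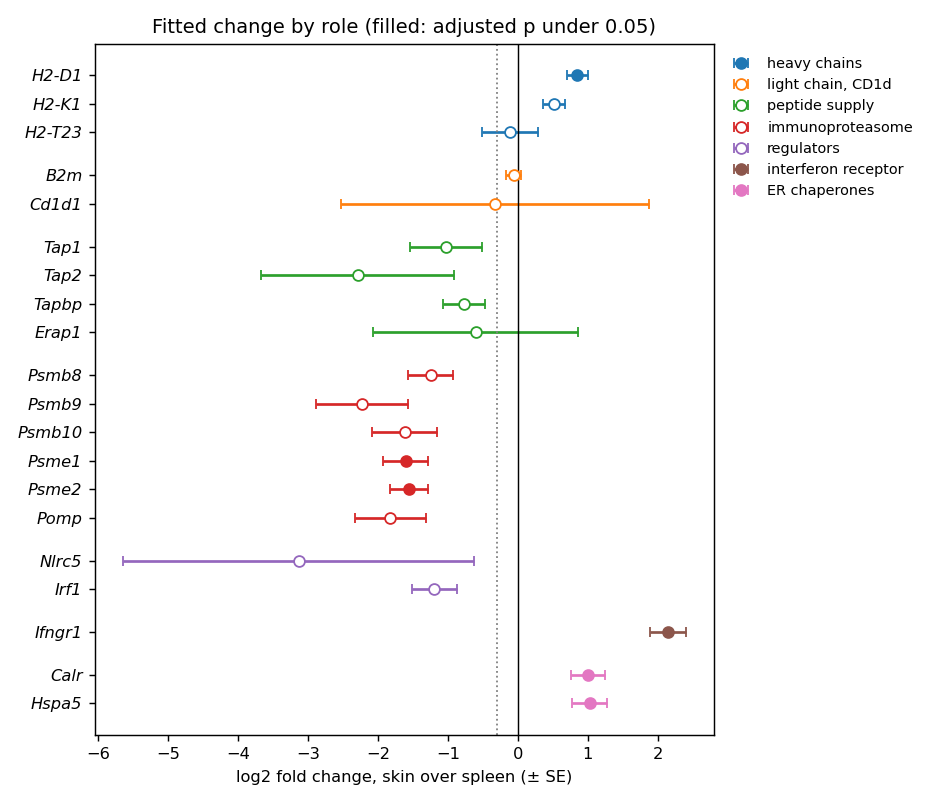
Fitted log2 fold changes, skin over spleen, with SE (bars) for the 10 genes and for named genes of the pathway, grouped and coloured by role; filled points had an adjusted p under 0.05 and the dotted line is the median of all genes tested, at -0.29. H2-D1, Ifngr1, Calr and Hspa5 lie above 0 and passed, Psme1 and Psme2 lie below and passed, and no peptide supply gene passed. Not every named gene is drawn. Ifit3 of the interferon list and Ganab of the loading list, both called lower in skin, are left out.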

How the data were processed

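The values are expected counts per gene, deposited unscaled. RSEM, which divides an ambiguous read among its candidate genes, is named in the submitters' processing notes beside FastQC, DESeq2 1.16.1 and build mm9, whose roles are not stated. The aligner and the annotation were not given in the sources used here. Per the labels' protocols, cDNA came from a full-length low-input kit that does not mark strand, read as paired ends of 75 bases. Columns were assigned by the names the labels give, and 0 were left unused.

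Expected counts were rounded. filterByExpr left 6920 of 22549 genes, which were scaled by TMM and tested with edgeR 4.0.16 in R 4.3.3 (robust glmQLFit, glmQLFTest, tissue as the only term) with Benjamini-Hochberg adjustment at 0.05. SE is the log2 fold change over the square root of F, and its 95% interval uses the fit's degrees of freedom. The fit was also run on simulated data, with the outcome not reported here, so nothing is concluded from it. Alternatives used DESeq2 1.42.0 and limma 3.58.1 (voom with quality weights), other scalings, filters and rounding, the replicate number as a block, and each library left out. Same-numbered libraries did not deviate together (correlations -0.000311 to 0.0138). Differently numbered ones gave -0.0281 to 0.0426. All were weak, so this check could not decide whether the numbers pair libraries. No 2 libraries agreed within sampling noise.

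The genes and lists were chosen with earlier results of these data known. A few genes were left out of the text. Named were the 10 genes, called members of each list or its 3 with the smallest adjusted p, and the 4 most abundant other heavy chains. Promoters are RefSeq's (GRCm38.p6), matched by symbol; shared 75-base words, counted on both strands, and exon lengths come from GENCODE M21. No coordinates were converted between builds.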

Additional observations from a re-analysis of the deposited data

Results flagged for a closer look

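In 3 of 70 gene and tissue groups of 4 libraries, the gap between the highest or lowest library and its neighbour, divided by the range, exceeded Dixon's 95% critical value, which chance passes in about 1 in 20 groups. Nlrc5 in skin gave 1, because skin replicate 3 held 69.0 CPM and the others 0. Psmb9 in skin gave 0.844, with 192 CPM in skin replicate 1 against 26.1 to 52.1 CPM in the others. Psmb8 in spleen gave 0.842, with 2378 CPM in spleen replicate 3 against 1482 to 1624 CPM in the others.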

How the results depend on the processing

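Over all genes, 128 were higher and 248 lower in skin. DESeq2 gave 201 and 1179, limma-voom 207 and 500, the replicate block 36 and 14, and no filter 97 and 48; leaving out 1 library gave 47 to 102 higher and 17 to 111 lower. Of the 10 genes, 1 was higher: 2 by RLE scaling (H2-K1 added, adjusted p = 0.0496, with 0.0496 to 0.858 over its 18 alternatives), 0 by DESeq2, limma-voom or the replicate block, and 0 to 1 without 1 library. Lower were 0, but 2 by limma-voom (Tapbp and Nlrc5) and 0 to 1 without 1 library. For H2-D1, limma-voom gave a log2 fold change of 0.62 (adjusted p = 0.263) and DESeq2 0.92 (adjusted p = 0.599); over its 18 alternatives adjusted p ran from 0.00423 to 0.599. The direction of H2-K1, H2-D1, B2m, Tap1, Tap2, Tapbp, Nlrc5 and Erap1 held in all 18 alternatives. Leaving out 1 library turned the sign for H2-T23 (log2 fold change -0.39 to 0.087; difference in log2(CPM + 1) -0.43 to 0.19), Cd1d1 (-1.15 to 0.069), H2-Ab1 (-0.89 to 1.03) and H2-T9 (-0.34 to 0.088), none of them called. Library totals alone moved the median log2 fold change of all genes to -0.44, the replicate block to -0.99 and limma-voom to -2.06. Of the genes called, 34.0% were higher in skin in the fit used and 27.3% to 37.5% under the other scalings. The share was 14.6% with DESeq2, 66.9% with no filter, 72% with the replicate block, 44.3% to 47.9% without 1 skin library and 67.95% to 76.2% without 1 spleen library, so most calls were higher in skin with no filter, with the block and without any 1 spleen library. The labels do not say that replicate numbers pair libraries, so the block is given as an alternative only. The causes were not tested. Low genes are limited by values at 0 in skin, which stood at 40.6% for genes at 20 to 50 CPM in spleen.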

Other observations

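Receptors that read class I molecules were described by a list of 14 genes, of which 11 were tested. By edgeR or DESeq2 0 passed in either direction, where edgeR called 1.85% of all genes tested higher and 3.58% lower. At an unadjusted edgeR p under 0.05, Klrk1 was higher and Cd160 lower, where 5.10% and 7.33% of all genes were. The median log2 fold change of the list was 1.41, against -0.29 over all genes. Klrk1, which encodes the activating receptor NKG2D, had 640, 434, 306 and 499 CPM in skin, against 245, 155, 296 and 267 CPM in spleen (edgeR adjusted p = 0.186). Klra5, of the Ly49 family, averaged 97.2 ± 72.5 CPM in skin, against 9.84 ± 8.71 CPM in spleen (edgeR adjusted p = 0.651). Both lay above spleen in every skin library. Cd160, a receptor for class I molecules and HVEM, had 0, 131, 50.4 and 42.2 CPM in skin, against 571, 319, 830 and 569 CPM in spleen (edgeR adjusted p = 0.329), and was called lower without skin replicate 1.

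Of 20 genes for class I-like molecules and lipid handling 9 were tested, and 0 passed by edgeR, 0 also at an unadjusted p under 0.05. Over all genes tested the edgeR shares were 1.85% higher and 3.58% lower, and 5.10% and 7.33% unadjusted. DESeq2 called 1 higher and 2 lower, where it called 201 higher and 1179 lower of 8886 genes. Gm2a, a lipid transfer cofactor, averaged 307 ± 75.0 CPM in skin, against 180 ± 102 CPM in spleen, and the hexosaminidase gene Hexa 69.9 ± 93.4 CPM and 221 ± 101 CPM. Of 11 class II presentation genes 4 were tested and 0 passed by edgeR, 0 also at an unadjusted p under 0.05, while DESeq2 called 1 lower. Ctss averaged 127 ± 30.3 CPM in skin, against 90.5 ± 24.6 CPM in spleen, Cd74 134 ± 81.3 CPM and 81.8 ± 92.4 CPM, and H2-Ab1 46.9 ± 33.5 CPM and 63.95 ± 83.1 CPM.

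Among 2236 genes with counts in all 8 libraries, the level of H2-D1 across libraries was most like that of Srgn (Pearson r = 0.991 on log2(CPM + 1)) and 1110007C09Rik (r = 0.973). H2-K1 was most like Klrc1 (r = 0.966) and Gng2 (r = 0.952), Tapbp most like Cxcr3 (r = 0.963) and Rpl23 (r = 0.947), Tap1 most like Rltpr (r = 0.964) and Mrpl33 (r = 0.956). B2m was most like H2-Q1 (r = 0.923) and Cd37 (r = 0.896), and H2-T23 most like Hopx (r = 0.932) and Tbrg1 (r = 0.928). These are descriptions over 8 libraries that share tissue and depth.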
